A study of Mus musculus with 3 samples.

Results

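Of 5721 regions bound by Ad4BP/SF-1 in vehicle-treated mouse Leydig cells, 3554 (62.1%, 95% exact binomial interval 60.9 to 63.4) shared no base with any region called in cAMP-treated cells. These 3554 regions, called vehicle-only peaks here, were selected on chromosomes 1 to 19 and X by comparing the peak positions of both lists. The highest scores among them lay in an intron of Rab31, between genes near 1700001O22Rik and in an intron of Arid1b. Others of the 20 highest lay at genes with varied roles, such as Nudt1, Manf, Crat, Zfpm1 and the cholesterol synthesis gene Dhcr7. Among the 1521 vehicle peaks with a score of at least 100, 488 (32.1%, interval 29.7 to 34.5) were vehicle-only. The score is minus 10 times the decimal logarithm of the p-value that the peak caller MACS gave a region in its own library, and both lists begin at a score of 50. The methods name a less strict p-value threshold than this minimum, and which cut-off made the lists is not known, although the cut-off of the cAMP list bears on which vehicle peaks count as vehicle-only. Each condition was represented by 1 library, so the vehicle-only peaks are positions absent from the cAMP list, and whether binding there was lower after cAMP was not tested.

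Leydig cells were isolated from the testes of 9-week-old male ICR mice, with several animals pooled, and were cultured with vehicle or with cAMP. No genetic alteration was described for either group, and the labels gave neither the dose nor the duration of the cAMP treatment. Chromatin was immunoprecipitated with an antibody to Ad4BP/SF-1 and sequenced. The peak lists give no read numbers, so sequencing depth is unknown here, and the intervals below cover the counting of regions only.

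Ad4BP/SF-1 (Nr5a1) is an orphan nuclear receptor that binds DNA as a monomer, at an extended copy of the nuclear receptor hexamer. In Leydig cells it drives the genes that turn cholesterol into testosterone, among them Star and Cyp11a1. Luteinizing hormone acts on these cells through cAMP and protein kinase A, and added cAMP is a common way to mimic the hormone.

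Of the 20 vehicle-only peaks with the highest scores, 16 carried the Ad4BP/SF-1 consensus, an 8-base sequence that was searched on both strands as TCAAGGTC, TCAAGGCC, CCAAGGTC or CCAAGGCC. These windows show the plus strand of mm10 around one copy in each peak, and the copy is in capitals. They come from the 5 highest scores, and from Zfpm1, Dhcr7 and Fgf2 as examples of high scores at genes of the functional lists described later. In the windows of Nudt1, Manf and Dhcr7 the copy lies on the minus strand, so the capitals show its reverse complement.
Rab31 intron, chr17:65702250-65702350: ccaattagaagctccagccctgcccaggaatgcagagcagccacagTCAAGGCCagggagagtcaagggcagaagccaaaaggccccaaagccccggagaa
1700001O22Rik (nearest TSS), chr2:30772285-30772385: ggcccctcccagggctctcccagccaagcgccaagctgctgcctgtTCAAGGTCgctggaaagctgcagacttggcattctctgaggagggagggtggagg
Arid1b intron, chr17:5247205-5247305: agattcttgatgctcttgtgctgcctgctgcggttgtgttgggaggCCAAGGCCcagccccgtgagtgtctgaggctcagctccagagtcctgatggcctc
Nudt1, chr5:140324202-140324302: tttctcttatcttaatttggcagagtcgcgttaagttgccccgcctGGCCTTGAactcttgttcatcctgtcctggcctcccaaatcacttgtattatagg
Manf, chr9:106890626-106890726: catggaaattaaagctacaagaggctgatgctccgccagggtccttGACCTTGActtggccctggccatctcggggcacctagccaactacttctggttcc
Zfpm1, chr8:122312813-122312913: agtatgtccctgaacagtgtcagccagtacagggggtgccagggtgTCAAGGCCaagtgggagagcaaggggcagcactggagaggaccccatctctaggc
Dhcr7, chr7:143833796-143833896: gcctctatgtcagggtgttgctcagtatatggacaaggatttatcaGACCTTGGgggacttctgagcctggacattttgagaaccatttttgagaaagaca
Fgf2, chr3:37378547-37378647: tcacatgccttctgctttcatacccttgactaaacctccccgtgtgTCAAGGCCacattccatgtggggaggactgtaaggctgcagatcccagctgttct

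The 20 vehicle-only peaks with the highest scores ranged from 202.41 to 328.78. Of these, 13 lay in introns, 3 at promoters and 4 between genes, and 16 contained the consensus. The highest score, 328.78, belonged to chr17:65702033-65702688, in an intron of Rab31, which encodes a small GTPase of vesicle traffic. The nearest transcription start site (TSS) of a protein-coding gene was that of Txndc2, a sperm thioredoxin, 60.2 kb away, and the nearest cAMP peak was 361 kb away. The second score, 311.26, belonged to chr2:30771960-30772800, between genes and 29.3 kb from the TSS of 1700001O22Rik. The third, 297.91 at chr17:5246615-5247345, lay in an intron of Arid1b, a subunit of the SWI/SNF chromatin remodelling complex, while the nearest TSS was that of Ldhal6b, 172 kb away. The fourth, 291.05 at chr5:140323869-140324566, lay in an intron of Nudt1, whose product hydrolyses oxidised purine nucleotides, and 2.56 kb downstream of its TSS.

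The peak near Gadd45b, a stress-induced regulator of MAP kinase signalling, scored 259.97 and lay 10.4 kb downstream of its TSS. Peaks in introns of Rerg, a Ras-like growth inhibitor, and of Tex2, an ER-resident lipid transfer protein, scored 248.53 and 204.79. The peak near Cntnap2, a neurexin-family adhesion protein, scored 242.54 and was 699.8 kb from a cAMP peak, the largest distance in this set. The peak in an intron of Zfpm1, which encodes the GATA cofactor FOG1, scored 229.22 at 30.7 kb downstream of the TSS, with a second vehicle-only peak of 57.36 at 31.9 kb. Peaks at Olfml2b and Sulf2, which encode an olfactomedin-like secreted protein and a heparan sulfate sulfatase, scored 207.52 and 202.41, and the intergenic peak nearest to Adamts3, a procollagen protease, scored 202.42. The peak in an intron of Gse1, a component of a histone deacetylase corepressor complex, scored 218.4. The peak at Sulf2 contained no copy of the consensus, and neither did those in introns of Ap1b1, a clathrin adaptor subunit (231.32), Daam2, a formin (220.29, nearest TSS Mocs1) and Myom3, a sarcomere protein (203.39). The other members of the 20, at Manf, Crat, Adgrg1 and Dhcr7, are described with the promoters and with cholesterol synthesis.

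These positions were not next to a cAMP peak in most cases, and neither were the vehicle-only peaks as a whole. The distance from the 20 peaks to the nearest cAMP peak ran from 3.14 kb at Olfml2b to 699.8 kb at Cntnap2. It exceeded 100 kb for 7 of them and was under 10 kb for 3 of them, those at Olfml2b, Rerg and Adgrg1. Of all 3554 vehicle-only peaks, 52.4% lay within 100 kb of a cAMP peak and 11.3% within 10 kb.

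Over all 5721 vehicle peaks, the score and the lack of a cAMP overlap moved in opposite directions. Without an overlap were 83.0% of the 1609 peaks that scored 50 to under 60, 60.3% of the 1145 peaks from 75 to under 100, 43.0% of the 895 peaks from 100 to under 150, and 10.5% of the 200 peaks from 200 to under 300. Of the 99 peaks that scored 300 or more, 2 were vehicle-only (2.02%), those in Rab31 and near 1700001O22Rik. The median score was 65.0 for vehicle-only peaks and 96.6 for the 2167 overlapping vehicle peaks. Scores under 60 were held by 1336 vehicle-only peaks (37.6%), close to the minimum of both lists. The Rab31 peak ranked 72nd among all vehicle peaks, and 64 of the top 500 vehicle peaks were vehicle-only. The overlap with the cAMP list chose these peaks, so the scores describe the selection and were not tested. Median peak widths were 487 bp for vehicle-only peaks and 561 bp for overlapping ones, and median GC contents were 48.5% and 47.9%.

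**Figure D1:**
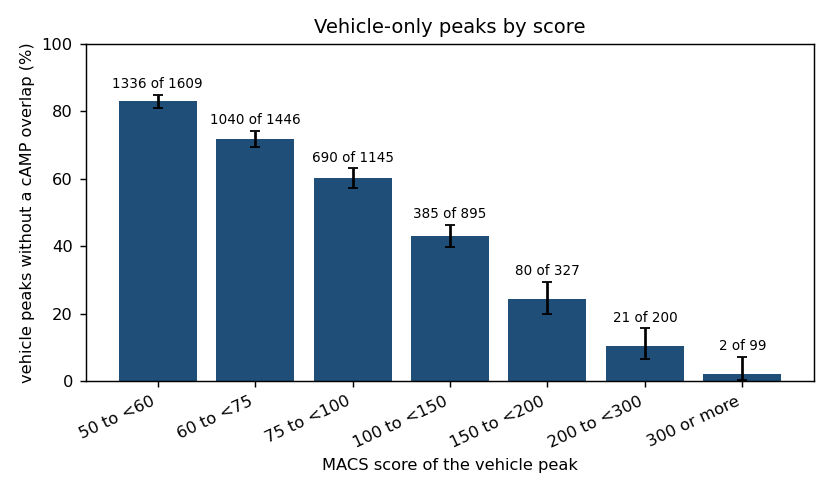
Share of vehicle peaks without a cAMP overlap (%, y axis) in 7 ranges of the MACS score (x axis). Bars are percentages of the peaks in each range, lines are 95% exact binomial intervals, and counts stand above the bars. The share goes down from 83.0% in the lowest range to 2.02% in the highest.

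At the score limit of 100, the 3 vehicle-only peaks just inside were near Zfp24 (100.01), Tfr2 (100.06) and Thoc5 (100.11), and the 3 just outside were near Itsn2 (99.99), Atp4a (99.89) and Kcns1 (99.87). At the limit of overlap, the vehicle peak near Fam198b ended 13 bp short of a cAMP peak and the peak near Pde5a, a cGMP phosphodiesterase, lay 62 bp from one, so both were vehicle-only. The peak near Nuak1 shared 20 bp with a cAMP peak and the peak near Ano6 shared 48 bp, so neither was.

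Such close calls were few. Only 36 vehicle-only peaks (1.01%) lay within 0.5 kb of a cAMP peak, and 73 (2.05%) lay within 1 kb. Within 10 kb were 401 peaks (11.3%) and within 100 kb were 1862 (52.4%), and the median distance was 91.2 kb with quartiles of 29.1 and 245 kb. Beyond 1 Mb from any cAMP peak were 137 peaks (3.85%). Peaks with a score of at least 100 were somewhat nearer, with a median of 70.2 kb, 59.4% within 100 kb and 9 beyond 1 Mb. The 1857 cAMP-only peaks lay at a median of 95.4 kb from the nearest vehicle peak. The cAMP list held 4024 peaks on these chromosomes against 5721 in the vehicle list, and the part of these numbers in the distances was not tested.

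**Figure D2:**
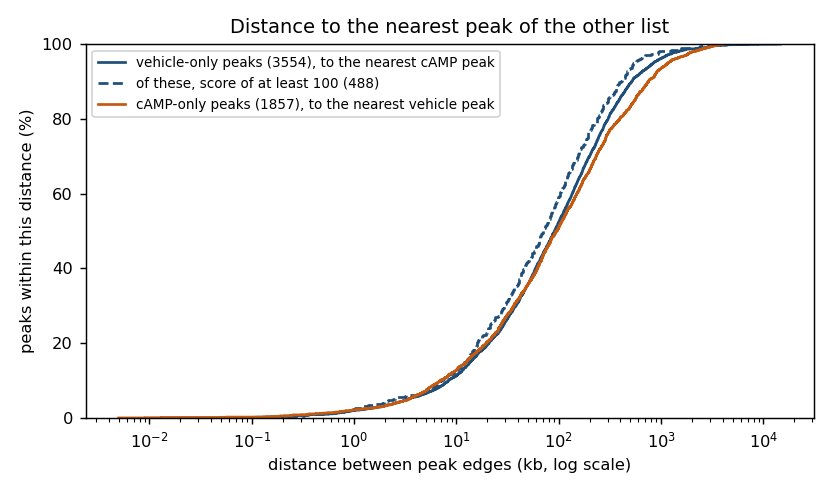
Cumulative share of peaks (%, y axis) by the distance between peak edges to the nearest peak of the other list (kb, log scale, x axis). Lines stand for vehicle-only peaks, for those with a score of at least 100, and for cAMP-only peaks. The curves run close together, with medians of 91.2, 70.2 and 95.4 kb.

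The 5 peaks farthest from the cAMP list, among those that scored at least 100, lay at Fbxo33, Mtrf1l, Paqr8, Tnfaip8 and Ppip5k2. The peak in Fbxo33, an F-box protein, scored 111.57 and was 3721 kb from a cAMP peak. The peak at Mtrf1l, a mitochondrial translation release factor, scored 105.87 and lay 203 bp upstream of its TSS. The peak in an intron of Paqr8, a membrane progesterone receptor, scored 164.54 and was 3096 kb from a cAMP peak. All 5 contained the consensus, and the 2 remaining ones, at Tnfaip8 and Ppip5k2, scored 137.36 and 112.66.

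Vehicle-only peaks lay mainly in introns and between genes. Introns held 1782 of them (50.1%), intergenic sequence 1286 (36.2%), promoters, taken as 1 kb to either side of a TSS, 356 (10.0%, interval 9.05 to 11.1) and exons 130 (3.66%). Overlapping vehicle peaks had a promoter share of 11.9% (interval 10.6 to 13.3), whereas cAMP-only peaks had 4.85% (3.91 to 5.92). The median distance to the nearest TSS was 15.5 kb for vehicle-only, 12.6 kb for overlapping and 22.0 kb for cAMP-only peaks. Intergenic positions more than 50 kb from a TSS made up 14.2%, 11.8% and 21.8% of the same groups. Among vehicle-only peaks that scored at least 100, 58 (11.9%) lay at promoters. In promoter share, TSS distance and share of distant intergenic positions, the vehicle-only value lay nearer to that of the overlapping vehicle peaks than to that of the cAMP-only peaks.

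The 10 highest promoter scores belonged to genes of varied roles. The peak at Manf, an ER stress-induced secreted factor, scored 262.38 with its centre 434 bp upstream of a TSS. The peak at Crat, the carnitine acetyltransferase of mitochondria and peroxisomes, scored 231.15 and was centred 100 bp downstream of the TSS. The peak at Adgrg1, an adhesion G-protein-coupled receptor, scored 203 and held 3 copies of the consensus, at 4.80 kb from a cAMP peak. Cyp2u1, a cytochrome P450 that hydroxylates fatty acids, had a peak of 202.18, and Hspa1l, a testis-expressed HSP70 family chaperone, one of 201.94 without a consensus. Peaks at Naca, a subunit of the nascent polypeptide-associated complex, at C1qtnf3, a secreted C1q-related factor, and at Tmie, a membrane protein of inner ear hair cells, scored 189.42, 181.11 and 171.98. The last peaks of this set were those at D17Wsu92e (162.98) and Sf3a2 (162.02). Of these 10 promoter peaks, 9 held the consensus. Over all promoters, 274 of 356 vehicle-only peaks (77.0%) and 230 of 258 overlapping peaks (89.1%) held it.

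Promoter windows of RefSeq were examined for 5 of these genes, and each overlapped the peak of its gene. Only that of Sf3a2, a core splicing factor, held a copy of the consensus. The windows of Hspa1l, Naca, C1qtnf3 and Tmie held none, and the copies in the peaks of Naca, C1qtnf3 and Tmie lay outside them. The Sf3a2 window is printed from RefSeq (mm10, chr10:80798485-80798784, plus strand, which is the gene's strand), and 280 of its 300 bases lie inside the peak. The capitals mark the copy, CCAAGGCC on the minus strand. The same peak lay 6.45 kb upstream of Amh, the anti-Müllerian hormone gene and a known Ad4BP/SF-1 target of Sertoli cells.
Sf3a2 promoter: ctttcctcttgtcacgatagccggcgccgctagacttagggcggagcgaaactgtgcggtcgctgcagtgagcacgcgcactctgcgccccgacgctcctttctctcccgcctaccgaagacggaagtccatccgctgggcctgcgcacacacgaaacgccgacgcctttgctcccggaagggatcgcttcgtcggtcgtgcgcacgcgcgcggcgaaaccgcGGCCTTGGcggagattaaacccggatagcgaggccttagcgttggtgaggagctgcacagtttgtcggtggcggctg

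The consensus was found in 2674 of the 3554 vehicle-only peaks (75.2%, interval 73.8 to 76.7), in 88.8% of overlapping vehicle peaks and in 63.6% of cAMP-only peaks. In vehicle-only peaks that scored at least 100, the share was 81.6% (398 of 488), against 90.3% of overlapping peaks at the same limit. More than 1 copy was held by 625 vehicle-only peaks (17.6%) and by 26.0% of overlapping ones. From the peak centre to the nearest copy, the median distance was 37.5 bp in vehicle-only and 33.5 bp in overlapping peaks. In windows of 300 bp at the peak centre the share was 73.1%, against 5.77% of 32585 RefSeq promoter windows of the same length.

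The difference in consensus share was also seen between peaks of like score. Within the range from 50 to under 60, 70.1% of vehicle-only and 84.2% of overlapping peaks held the consensus, and in the range from 100 to under 150 the shares were 81.0% and 88.8%. From 150 to under 200 they were close, at 85.0% and 88.3%. The vehicle-only share was below the overlapping share in each range up to 300.

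The 4 spellings of the consensus differed in share. TCAAGGTC was found in 36.6% of vehicle-only and 49.0% of overlapping peaks, TCAAGGCC in 24.7% and 29.6%, CCAAGGTC in 16.8% and 17.4%, and CCAAGGCC in 10.8% and 12.3%. The spelling TCAAGGTC made up 40.7% of the 3391 copies in vehicle-only peaks and 45.1% of the 2626 copies in overlapping peaks.

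A second sequence that differed was that of AP-1, the Fos and Jun dimer, searched as TGANTCA in the 300 bp windows on both strands. It was found in 456 vehicle-only windows (12.8%, interval 11.7 to 14.0), 18.4% of overlapping windows (16.8 to 20.1), 15.8% of cAMP-only windows (14.2 to 17.6) and 7.85% of promoter windows. Vehicle-only windows had the lower share in all 5 score ranges examined, for instance 11.2% against 17.6% from 100 to under 150, and also outside promoters, with 13.3% against 19.4%. A match of these letters is a description of the sequence and not a measured site of AP-1.

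The nuclear receptor hexamer AGGTCA, which overlaps the consensus, was in 61.7% of vehicle-only and 71.3% of overlapping windows. The other short sequences differed less between these groups. GATAAG, bound by GATA factors, was in 11.8% and 10.8%, and in 8.67% of cAMP-only windows. The ETS letters CCGGAA were in 5.46%, 5.68% and 2.85% of vehicle-only, overlapping and cAMP-only windows, and the Sp1 letters GGGCGG in 9.06%, 8.44% and 4.63%. The cAMP response element TGACGTCA was in 15 vehicle-only windows (0.422%), 0.508% of overlapping and 0.269% of cAMP-only windows, against 1.80% of promoter windows. Its 5-base part TGACG was in 11.3%, 12.5% and 11.1%. CACGTG, bound by basic helix-loop-helix factors, was in 4.47% and 4.89% of vehicle-only and overlapping windows, TTGCNNCAA of the C/EBP family in 2.45% and 2.58%, and CCAAT of NF-Y in 30.6% of both. The palindrome of the NFI family was in 2 vehicle-only windows.

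**Figure D3:**
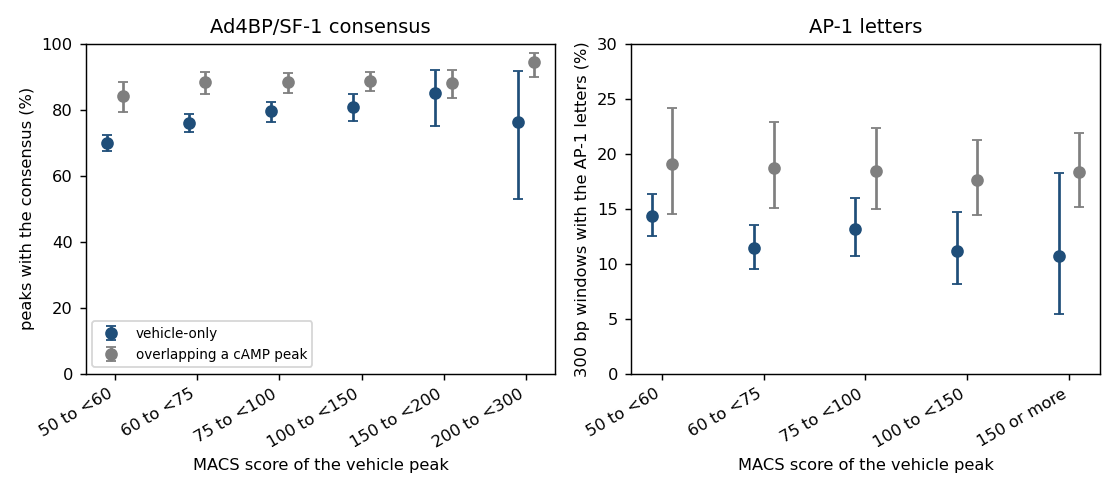
Share of vehicle peaks with the Ad4BP/SF-1 consensus (left, %) and share of 300 bp windows with the AP-1 letters (right, %) by range of the MACS score (x axes). Points are percentages for vehicle-only peaks and for peaks overlapping a cAMP peak, with 95% exact binomial intervals. The vehicle-only points lie below the overlapping points in each range drawn, and the consensus shares are closest from 150 to under 200.

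A vehicle-only peak lay in or within 10 kb of 2861 of 21728 protein-coding genes (13.2%), and a vehicle-only peak that scored at least 100 of 515 (2.37%). For comparison, 1955 genes (9.00%) had an overlapping vehicle peak and 1395 (6.42%) a cAMP-only peak. Of the 2861 genes, 2010 (70.3%) had no cAMP peak at all in the same window, 592 also had an overlapping vehicle peak and 382 also had a cAMP-only peak. No protein-coding gene lay within 10 kb of 882 vehicle-only peaks (24.8%). The genes with a vehicle-only peak had a median length of 35.7 kb against 17.4 kb for all genes, and the part of gene length in the counts below was not tested.

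The genes with most vehicle-only peaks had varied roles. Ksr1, a scaffold of the Raf and MEK kinases, had 7 vehicle-only peaks that scored 54.83 to 140.18, beside 2 overlapping peaks. Tns1, the focal adhesion protein tensin, had 7 that scored 50.08 to 123.78, beside 4 overlapping peaks. Gse1 had 6. Arhgef17, a guanine nucleotide exchange factor, had 5 that scored 58.02 to 183.49. Ergic1, a protein of the compartment between ER and Golgi, had 5 that scored 51.79 to 117.12, with neither an overlapping vehicle peak nor a cAMP-only peak. Arid1b, Etv6, Hspg2, Scap, Slc7a8 and St5 also had 5 each. The gene models with the highest counts, Gm20388 with 36 peaks and Fgfr2 with 8, span 4435 and 2961 kb in GENCODE. In RefSeq, Fgfr2 spans 104 kb and had no vehicle-only peak within 10 kb, so its count rests on the longer model.

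**Figure D4:**
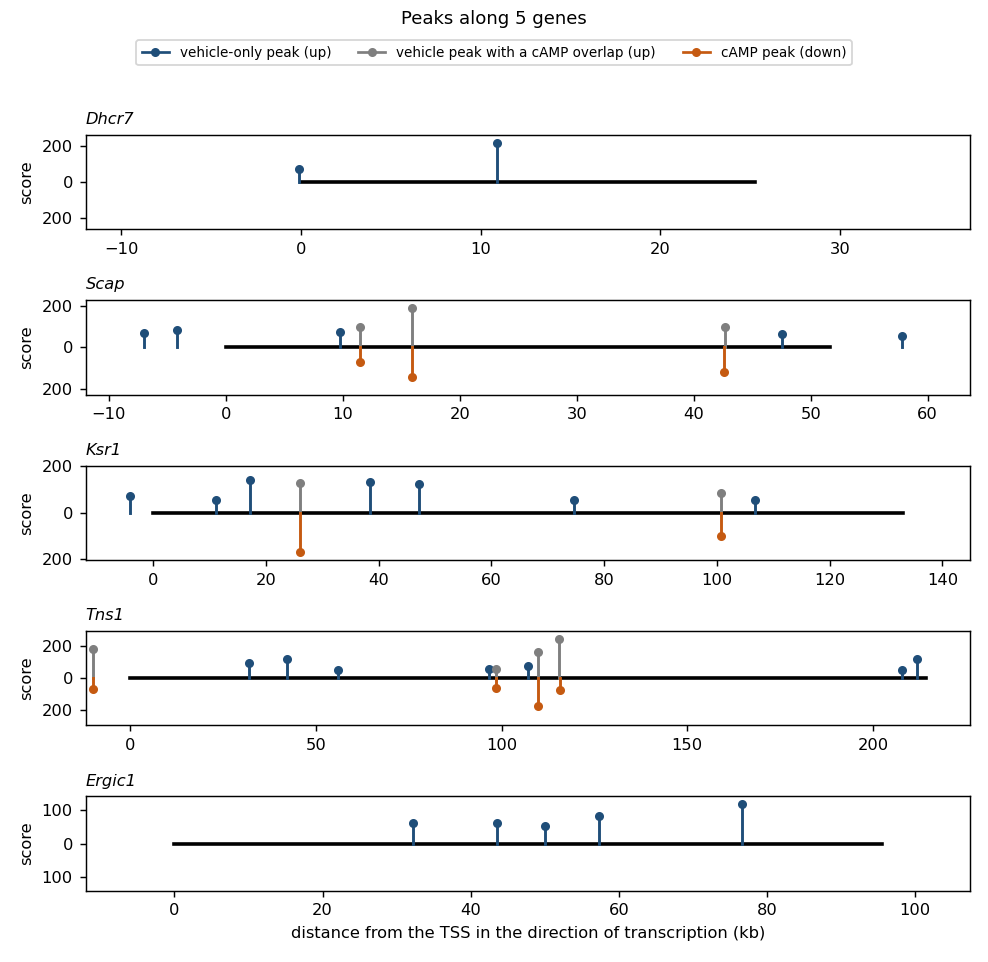
Peaks along Dhcr7, Scap, Ksr1, Tns1 and Ergic1 by distance from the outermost TSS in the direction of transcription (kb, x axis), with the black line for the gene. Height is the MACS score, upward for vehicle peaks (vehicle-only or with a cAMP overlap) and downward for cAMP peaks, whose scores come from another library and are not on a common scale. Dhcr7 and Ergic1 carry vehicle-only peaks and no cAMP peak.

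Functional lists were compared with all protein-coding genes, and the share of the latter, 13.2% with a vehicle-only peak, 9.00% with an overlapping vehicle peak and 6.42% with a cAMP-only peak, is the background for each count that follows. Over the 26 lists together, 207 of 884 genes (23.4%) had a vehicle-only peak, 19.2% had an overlapping vehicle peak and 13.8% a cAMP-only peak, so all 3 kinds of peak were more frequent at list genes. The share with a vehicle-only peak was above that of all genes in 23 lists, with cholesterol synthesis, cytosolic ribosomal proteins and the Hedgehog pathway as the exceptions. The list genes had a median length of 31.6 kb, and these counts were not tested. The 284 vehicle-only peaks at list genes had a median score of 66.1, and 222 of them (78.2%) held the consensus.

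**Figure D5:**
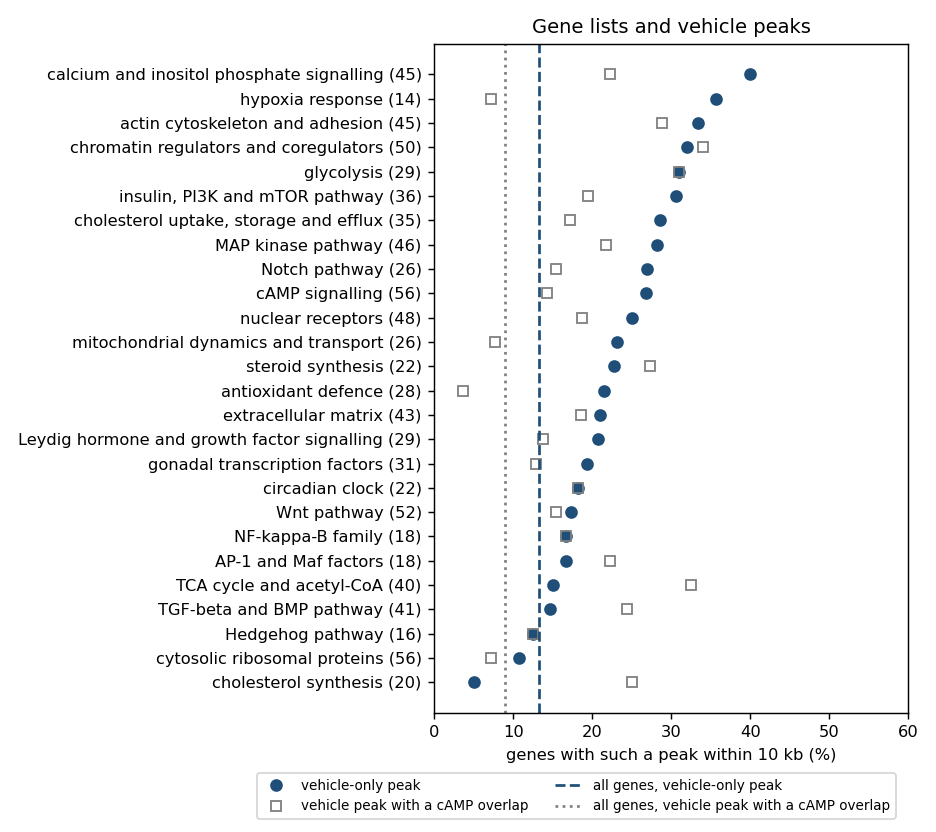
Share of the genes of each functional list (number of genes in parentheses) with a vehicle-only peak (filled circles) or an overlapping vehicle peak (open squares) within 10 kb (%, x axis). The lines give the shares of all protein-coding genes, 13.2% and 9.00%. Calcium and inositol phosphate signalling has the highest vehicle-only share, 40%, and cholesterol synthesis the lowest, 5%.

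Dhcr7, which carries out the last reduction on the way to cholesterol, was the only one of 20 cholesterol synthesis genes with a vehicle-only peak. This was 5% of the list (interval 0.127 to 24.9), against 13.2% of all genes, and the interval includes that share. Dhcr7 had 2 such peaks. The stronger, chr7:143833423-143834740, scored 219.19, was 1318 bp wide, lay in an intron 10.9 kb downstream of the outermost TSS and held 4 copies of the consensus. The weaker, chr7:143822852-143823211, scored 70.96, was centred 114 bp upstream of that TSS and held 1 copy. The nearest cAMP peak was 626.6 kb from the stronger peak. Overlapping vehicle peaks were found at 5 of the 20 genes (25%), against 9.00% of all genes.

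In steroid synthesis, a vehicle-only peak was found at 5 of 22 genes, Star, Cyp11a1, Por, Hsd17b3 and Cyp19a1. This was 22.7%, against 13.2% of all genes, while 27.3% of the list had an overlapping and 18.2% a cAMP-only peak. The scores were 58.75, 65.55, 74.13, 73.2 and 58.64, so none reached 100. At Star, which brings cholesterol into mitochondria, the vehicle-only peak lay 12.7 kb downstream of the TSS, and an overlapping vehicle peak of 69.68 lay at 1.89 kb. At Cyp11a1, the side-chain cleavage enzyme, the vehicle-only peak lay 5.36 kb downstream of the outermost TSS and 2.09 kb from a cAMP-only peak. At Hsd17b3, which makes testosterone, it lay 6.07 kb upstream and 30.3 kb from a cAMP peak. Each of the 5 genes had a cAMP peak in the same window, whereas 70.3% of all genes with a vehicle-only peak had none.

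In cholesterol uptake, storage and efflux, 10 of 35 genes (28.6%) had a vehicle-only peak, against 13.2% of all genes, and 5 of the 10 had no cAMP peak in the window, against 70.3% of all genes with a vehicle-only peak. Scap, which escorts the sterol-sensing SREBP factors, had 5 that scored 56.88 to 82.47, on both sides of 3 overlapping peaks. The lipid droplet genes Plin4 and Plin5 are neighbours and share 2 of their vehicle-only peaks, which scored 76.73 and 100.87. A further peak of 169.31 lay 16.8 kb downstream of the Plin4 TSS, inside another gene, Hdgfl2. A cAMP-only peak of 80.87 lay in Plin4, 1.72 kb downstream of the same TSS. Scarb1, the HDL receptor, had 2 that scored 56.65 and 78.57, the latter 70 bp from a cAMP peak. Abcg5 and Abcg8, the paired sterol exporters, shared 1 peak of 116.74 without a consensus, 461.9 kb from a cAMP peak. Lipa, the lysosomal lipase, had a peak of 56.96, Plin1 one of 61.53 and Lrp1 one of 76.96.

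Among energy metabolism genes, against 13.2% of all genes with a vehicle-only peak and 9.00% with an overlapping one, 9 of 29 glycolysis genes (31.0%) had a vehicle-only peak and the same number an overlapping peak. Of these 9 genes with a vehicle-only peak, 5 had no cAMP peak in the window, against 70.3% of all genes with a vehicle-only peak. Hk2 had 2 that scored 57.01 and 69.56, and Gapdh had 2 that scored 61.4 and 85.61. The peak near Pfkl, the liver-type phosphofructokinase, scored 122.71. For the TCA cycle and acetyl-CoA, the count was 6 of 40 (15%), near the share of all genes, and 13 had an overlapping peak. Got2, the mitochondrial aspartate aminotransferase, had the highest of these scores, 100.17. For mitochondrial dynamics and transport it was 6 of 26 (23.1%), and 2 had an overlapping and 2 a cAMP-only peak. Mff, the fission factor that recruits the dynamin-like GTPase to mitochondria, had 3 that scored 118.04, 51 and 151.64, at 151 to 181 kb from a cAMP peak. For antioxidant defence it was 6 of 28 (21.4%), while 1 gene had an overlapping and 5 a cAMP-only peak (17.9%, against 6.42% of all genes), and none of the 6 genes (Gpx4, Gsr, Prdx1, Prdx2, Sod1 and Txnrd2) had a peak of 100 or more.

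The cAMP pathway itself was represented by 15 of 56 genes (26.8%), against 13.2% of all genes. Of the 15, 11 had no cAMP peak in the window, a share close to the 70.3% of all genes with a vehicle-only peak. A cAMP-only peak was found at 10 of the 56 (17.9%, against 6.42% of all genes), and the median gene length of the list was 91.4 kb, against 17.4 kb for all genes. The 15 genes included the adenylyl cyclases Adcy3 (102.7) and Adcy9 (67.25), which make cAMP, and the phosphodiesterases Pde1a (54.72), Pde4a (51.31), Pde8a (51.31), Pde8b (71.61) and Pde10a (84.83), which break it down. The kinase subunits were Prkaca (112.68), Prkar1b (90.12) and Prkar2b (59.64), with the kinase inhibitor Pkig at 96.91 and the anchoring protein Akap7 at 86.07. All 3 genes of the CREB coactivator family had one, Crtc1 at 63.18, Crtc2 at 81.98 and Crtc3 at 59.2. The values are the highest vehicle-only score at each gene, and only Adcy3 and Prkaca reached 100.

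Calcium and inositol phosphate signalling had the largest share of the 26 functional lists, with 18 of 45 genes (40%, against 13.2% of all genes), and a median gene length of 102 kb. It also had cAMP-only peaks at 12 genes (26.7%, against 6.42%), and the order of the lists was not tested. Its highest scores were 154.84 at Camk2a, a calmodulin-dependent kinase, and 131.45 at Prkce, a protein kinase C isoform. Cacna1h, a T-type calcium channel of steroid-producing cells, had a peak of 127.73, and Nfatc3 one of 127.29. The MAP kinase pathway counted 13 of 46 (28.3%, against 13.2% of all genes), with Grb2, the receptor adaptor, at 152.09. Of these 13 genes, 5 had no cAMP peak in the window, against 70.3% of all genes with a vehicle-only peak. The insulin, PI3K and mTOR pathway counted 11 of 36 (30.6%), with Deptor, an mTOR inhibitor, at 106.19.

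Among transcriptional regulators, to be read against the 13.2% of all genes, chromatin regulators and coregulators counted 16 of 50, led by Arid1b at 297.91, Hdac5 at 120.0, Kdm6b at 115.73 and Dnmt3a at 107.05. Nuclear receptors counted 12 of 48, and 9 of the 12 had no cAMP peak in the window, also close to the 70.3% of all genes with a vehicle-only peak. Thrb, a thyroid hormone receptor, had the only peak above 100 (122.03), and Esrra, an orphan receptor that regulates mitochondrial genes, had one of 97.07 centred 558 bp upstream of a TSS. Gonadal transcription factors counted 6 of 31, with Zfpm1 and Stat5b (159.19) highest. AP-1 and Maf factors counted 3 of 18, or 16.7%, including Fos (92.56) and Mafg (95.7). Circadian clock genes counted 4 of 22, including Cry2 at 98.64 and Arntl at 94.14, the latter centred 11 bp downstream of a TSS. The hypoxia response counted 5 of 14, with Egln1, an oxygen-sensing hydroxylase, at 138.28, and the NF-kappa-B family 3 of 18 (Nfkb1, Nfkbie and Traf2), so that both lists of 18 genes were near the share of all genes.

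The signalling and matrix lists are likewise read against 13.2%. In the list of Leydig hormone and growth factor signalling, 6 of 29 genes had a vehicle-only peak, of which Fgfr2 only in the longer gene model. Fgf2, a fibroblast growth factor, had a peak of 197.99 in an intron, Prlr, the prolactin receptor, one of 151.61 and Igf1r one of 127.88. The Wnt pathway counted 9 of 52, with Tcf7 at 145.2, and the Notch pathway 7 of 26, with its transcription factor Rbpj at 135.64. The TGF-beta and BMP pathway counted 6 of 41 (14.6%), near the share of all genes, with Tgfbr3 (betaglycan) at 146.67. Of these 6 genes, 1 had no cAMP peak in the window, against 70.3% of all genes with a vehicle-only peak. The Hedgehog pathway counted 2 of 16, Boc and Gli3. Actin cytoskeleton and adhesion counted 15 of 45, with Itga9, an integrin chain, at 197.33, and the extracellular matrix 9 of 43, with Col4a1 at 131.73. Cytosolic ribosomal proteins, whose median gene length is 3.68 kb, counted 6 of 56 (10.7%), near the 13.2% of all genes. Each of the 6 was without a cAMP peak in the window, as were 70.3% of all genes with a vehicle-only peak.

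Marker genes were looked up to compare the label of the cells with the positions bound, since peak lists measure binding and not expression. Over all protein-coding genes, 13.2% had a vehicle-only peak and 9.00% an overlapping vehicle peak. Of 10 Leydig cell markers, 5 had a vehicle or cAMP peak and 4 an overlapping vehicle peak. A vehicle-only peak was also found at 4 (40%, interval 12.2 to 73.8), Star, Cyp11a1, Hsd17b3 and Fabp3. Of 10 Sertoli cell markers, 2 had a vehicle-only peak, Amh (162.02) and Clu (68.7). Of 6 peritubular myoid cell markers 1 had one, Mylk (69.32), and none of the 10 germ cell, 8 macrophage or 7 endothelial cell markers had one. A vehicle or cAMP peak of any kind was found at 2 Sertoli, 2 germ, 1 myoid, 1 macrophage and 1 endothelial cell marker. The share of all genes with a peak of any kind is not given here, so these counts have no background. With 6 to 10 markers per cell type the intervals are wide, for instance 0 to 30.8% for germ cell markers, and the cell types were not tested against each other. The share of other cell types in the culture cannot be read from these counts.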

How the data were processed

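Ad4BP/SF-1 ChIP-seq peaks of mouse Leydig cells were analysed, 1 library with vehicle and 1 with cAMP, and groups were taken from the labels. The input library was not used here. According to the methods and the submitters' processing notes, the authors aligned reads to mm10 with Bowtie (0.12.8 in the notes) and called peaks with MACS for each library. The deposited score of each peak is minus 10 times log10 of its p-value. Whether input served as the control is not given in the sources used here. The lists hold no read numbers, so depth is unknown.

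A vehicle-only peak shared no base with a cAMP peak on chromosomes 1 to 19 and X, as checked with bedtools 2.31.1. Only 1 cAMP peak lay on another chromosome. Genes and TSSs of protein-coding transcripts came from GENCODE (GRCm38, the build of mm10), and sequences from RefSeq (GRCm38), read with pysam 0.24.0. The consensus was searched in whole peaks and other motifs in 300 bp windows. Genes were assigned within 10 kb. Intervals are 95% exact (Clopper-Pearson) intervals from scipy 1.17.1 and cover counting error only. No p-value was computed, because each condition had 1 library. The functions were tested on simulated data. Genes were named as those nearest to the 20 highest scores, the 10 highest promoter scores, the 5 largest distances and the limits of the rule, those with most peaks, and members of the gene lists. The members and lists were chosen with earlier results of these data known. Other overlap rules, score limits, promoter widths, motif forms and gene windows were tried as alternatives. A few list genes are counted but not reported here by name.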

Additional observations from a re-analysis of the deposited data

How the results depend on the processing

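Of 94 values recomputed under other settings, 59 stayed within 1.5 times the reported count or within the reported interval, and 35 moved beyond. No paired analysis was possible because each condition had 1 library and no test was made. The 3554 vehicle-only peaks became 1178 with vehicle peaks of at least 75 and 2154 with as many top vehicle peaks as cAMP peaks. As a percentage of vehicle peaks they became 44.2% and 53.5% under these settings, 60.8% when a cAMP peak within 1 kb counted as shared, and 77.8% and 85.6% when cAMP peaks needed a score of 75 or 100. The 488 peaks with a score of at least 100 became 760 and 934 under these last settings.

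The consensus share of 75.2% became 77.3% and 78.4% with cAMP peaks of at least 75 or 100, 80.4% with vehicle peaks of at least 75, 78.6% with the top vehicle peaks, 81.6% at a score of at least 100, 79.7% for the 7-base form and 67.6% in the central 200 bp. It was below the share of overlapping peaks in 12 of 12 settings, the reported one included, by 8.76 to 14.3 percentage points. The AP-1 share of 12.8% became 14.2% with cAMP peaks of at least 100 and 11.1% at a score of at least 100, and was below that of overlapping peaks in 10 of 10 settings, by 4.78 to 6.94 points. The windows outside promoters were added after the data were seen.

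The promoter share of 10.0% became 11.5% with vehicle peaks of at least 75, 11.9% at a score of at least 100, 6.70% within 500 bp, 25.4% within 5 kb and 7.65% from outermost 5′ ends. The median distance to a cAMP peak of 91.2 kb became 78.1 kb with vehicle peaks of at least 75, 82.2 kb with the top vehicle peaks and 70.2 kb at a score of at least 100. The 2861 genes became 1123 with vehicle peaks of at least 75, 1900 with the top vehicle peaks, 1878 for gene bodies only, 5876 within 50 kb and 515 at a score of at least 100. The 207 list genes became 96 with vehicle peaks of at least 75, 366 within 50 kb and 42 at a score of at least 100. The number of lists above the share of all genes ran from 18 to 25 of 26. The RefSeq span of genes, also added after the data were seen, moved Fgfr2 from 8 peaks to 0.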
